A study of Homo sapiens with 40 samples.

Results

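The genes described here build, bind, cut or edit the sugar chains of the extracellular matrix, hyaluronan and heparan sulfate. They are 8 of the 22069 probe sets of the series, 1 for each Ensembl gene, and all 8 were present: KIAA1199 (now CEMIP, ENSG00000103888_at), HAS2 (ENSG00000170961_at), HAS3 (ENSG00000103044_at), CD44 (ENSG00000026508_at), HYAL2 (ENSG00000068001_at), VCAN (ENSG00000038427_at), SULF1 (ENSG00000137573_at) and SULF2 (ENSG00000196562_at). The list was drawn up with earlier results of the same arrays in view. Which of them were used was not stated, and the genes count here as chosen by 2 comparisons. The first is CASP8AP2 siRNA against control siRNA in hTERT-RPE1 cells on day 3, in which KIAA1199 had the lowest difference of all 22069 probe sets. The second is U2OS against hTERT-RPE1 cells under control siRNA, in which VCAN was lowest on days 2 and 3. The values of these comparisons are given as a description, as are those of NPAT and HINFP siRNA in hTERT-RPE1 cells, which stand against the same day 3 control arrays. Counts of genes past the threshold are printed there beside their background only. The control arrays of both lines stand in the second comparison. They also stand in the tests of an siRNA against control and of change over time, which are therefore not independent of the choice.

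The 40 Affymetrix Human WT arrays measured messenger RNA in 16 groups of cell line, siRNA and day. U2OS is a human osteosarcoma line, and hTERT-RPE1 is a line of retinal pigment epithelial cells from normal tissue, kept dividing by the telomerase gene hTERT. All cells were transfected at 15 nM with a pool of 4 siRNAs against CASP8AP2, NPAT or HINFP, which are needed for the transcription or processing of histone messenger RNA, or with the AllStars negative control siRNA. Days 1 and 2 held control and CASP8AP2 siRNA in each line with 3 replicates a group, and day 3 held all 4 siRNAs in each line with 2 replicates transfected at the same time. The values are on the log2 scale, on which 1 unit is a doubling of the array signal, and the labels do not say that replicates came from separate cultures, so that p-values measure the spread between these arrays, which may be technical.

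Days 1 and 2 and day 3 were taken as normalized apart, since the mean of an array was 6.00 to 6.05 in the first set and 5.85 to 5.88 in the second, and levels were compared only within a set. The transcript named by each siRNA was lower in all its arrays than in all control arrays in the 10 comparisons of an siRNA with control, with 30.1% to 59.1% left. Of 19 marker genes of the tissues of origin, 5 could be matched to a probe set. The retinal pigment epithelium genes RLBP1 and BEST1 and the bone genes COL1A2 and IBSP had control group means of 3.47 to 4.49 in both lines, under the array medians of 5.23 to 5.67. RUNX2, the bone transcription factor, had control means of 7.34 to 7.87 in U2OS cells and 9.57 to 9.67 in hTERT-RPE1 cells, so that the matched markers did not set the lines apart as their tissues would. In bulk RNA, fewer cells that express a gene and less of its RNA in each cell cannot be told apart.

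Hyaluronan is a long chain of sugars without a protein core. Hyaluronan synthases such as HAS2 and HAS3 spin it out through the plasma membrane, CD44 is its main receptor on the cell surface, and the large proteoglycan versican (VCAN) binds it in the matrix. HYAL2, a hyaluronidase anchored at the cell surface, and KIAA1199, a protein that binds hyaluronan, are needed for its cleavage outside the cell. Heparan sulfate is carried by proteoglycans such as syndecans and glypicans, and the secreted enzymes SULF1 and SULF2 remove sulfate groups from its chains, which changes how the chains bind growth factors.

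Promoter windows of RefSeq (build GRCh38.p14, 250 bases before to 50 after a start site) were used for 6 of the 8 genes. Of these, 5 had 1 window and SULF2 had more. No window was used for HAS2 or SULF1, so that their promoters were not searched. The stretches before the start sites of KIAA1199 and VCAN are shown because these genes carried the largest fall and the largest difference between the lines. Both lie on the plus strand, KIAA1199 at chr15:80779120-80779369 and VCAN at chr5:83471494-83471743, and capitals mark TATAAA.

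KIAA1199: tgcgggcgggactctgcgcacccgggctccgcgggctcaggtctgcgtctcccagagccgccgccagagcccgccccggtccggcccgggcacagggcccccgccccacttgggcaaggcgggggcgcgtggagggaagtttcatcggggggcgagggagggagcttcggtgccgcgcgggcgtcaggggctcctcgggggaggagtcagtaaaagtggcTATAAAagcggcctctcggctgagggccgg

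VCAN: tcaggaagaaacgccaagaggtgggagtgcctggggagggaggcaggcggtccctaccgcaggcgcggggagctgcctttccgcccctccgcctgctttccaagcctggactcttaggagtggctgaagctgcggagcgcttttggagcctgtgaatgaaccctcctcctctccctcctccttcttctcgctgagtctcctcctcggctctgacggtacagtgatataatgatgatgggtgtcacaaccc

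The letters TATAAA began 30 bases before the start site of KIAA1199, on the strand of the gene, and were in none of the other windows of the 6 genes. On either strand they were in 11.5% of all 35116 windows in the table. Of the other motifs searched on both strands, CACGTG (in 7.26% of all windows) was in the HAS3 window and in a SULF2 window, CCAAT (34.6%) was in 2 SULF2 windows, and TGANTCA (7.71%) was in none of the windows of the 6 genes. The KIAA1199 window was 73% G or C with 32 CG pairs, and the VCAN window 60.3% with 15.

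**Figure D1:**
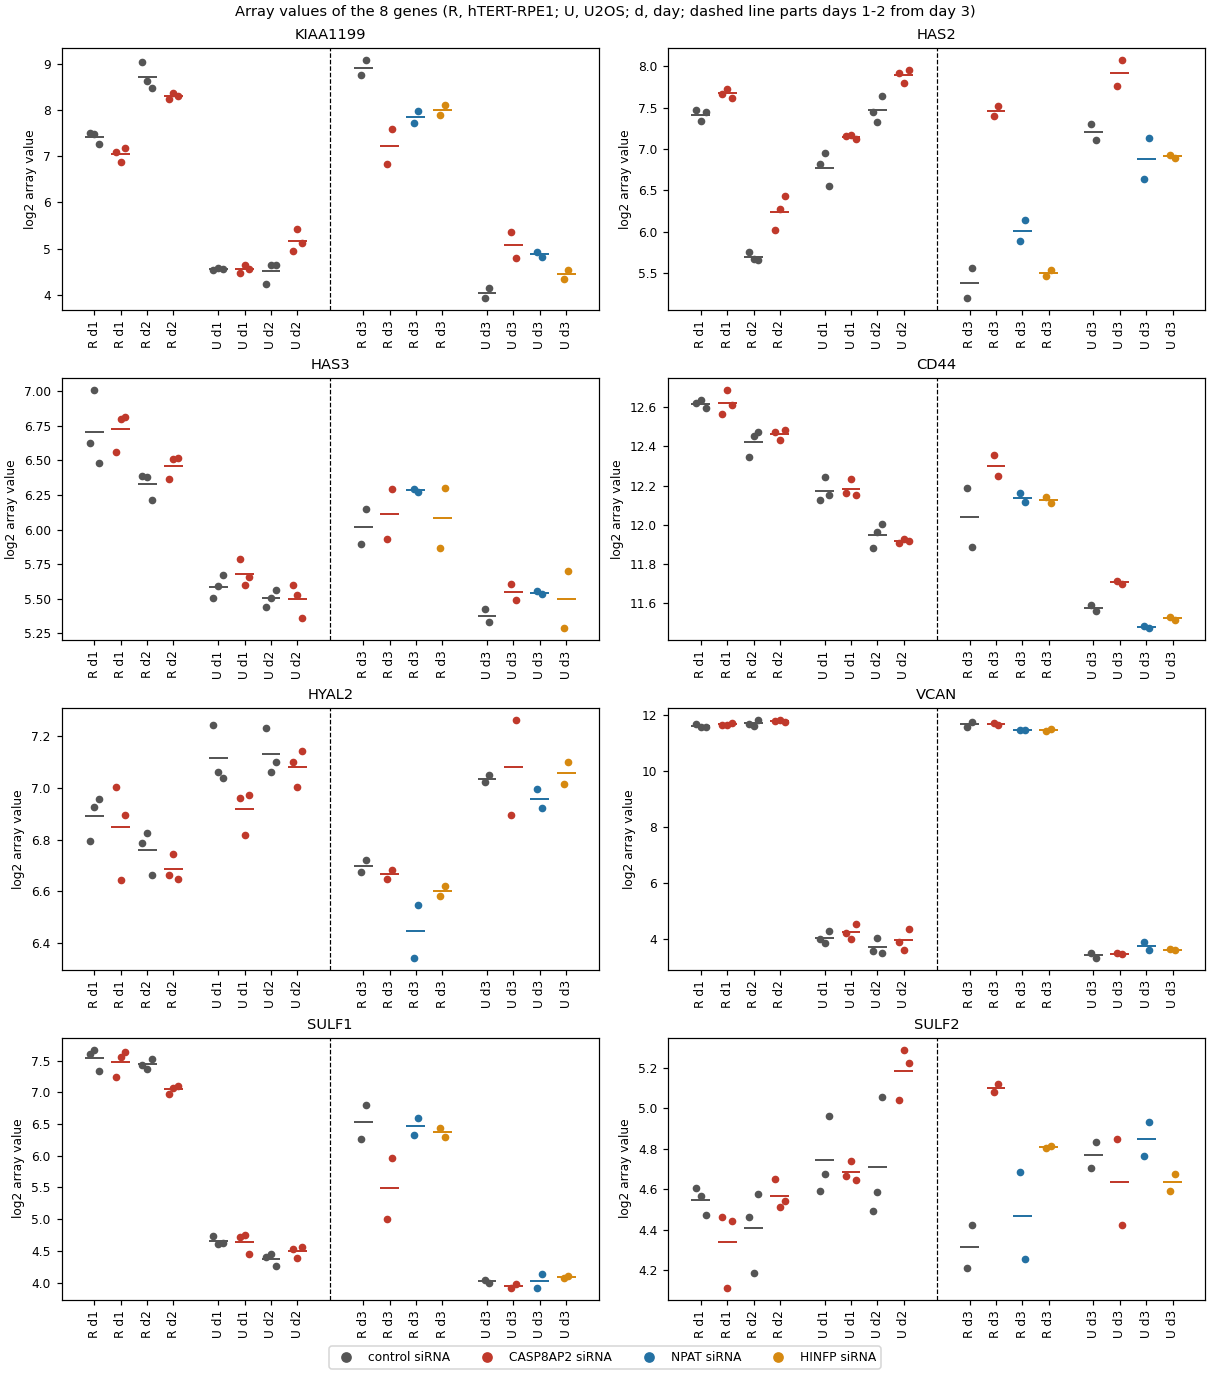
Log2 array value (y axis) of each gene in every array, with groups on the x axis by line (R, hTERT-RPE1; U, U2OS) and day (d1 to d3) and colour by siRNA; points are arrays, bars are group means, and the dashed line parts the sets normalized apart. VCAN, SULF1 and KIAA1199 sat higher in every hTERT-RPE1 array than in every U2OS array of their set, while SULF2 differed little between the lines.

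The lines differed most in VCAN. Its values were 11.67, 11.57 and 11.58 in hTERT-RPE1 cells with control siRNA on day 1 and 3.99, 3.85 and 4.30 in U2OS cells, and on day 3 they were 11.58 and 11.75 against 3.52 and 3.34. The difference, U2OS minus hTERT-RPE1, was -7.56 on day 1, -7.98 on day 2 and -8.23 on day 3. All U2OS values of VCAN, 3.34 to 4.53, lay below the array medians, and its hTERT-RPE1 values ran from 11.41 to 11.82. KIAA1199 and SULF1 were also lower in U2OS cells. On days 1, 2 and 3 the differences were -2.87, -4.21 and -4.87 for KIAA1199 and -2.89, -3.07 and -2.52 for SULF1.

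The other genes differed less, or changed place. HAS3 was lower in U2OS cells, with differences of -1.12, -0.83 and -0.64 on the 3 days, and CD44 differed by -0.44, -0.47 and -0.46, with the arrays of the lines apart each time. HYAL2 was higher in U2OS cells by 0.22, 0.37 and 0.34, and SULF2 by 0.20, 0.30 and 0.45. HAS2 was lower in U2OS cells on day 1, at 6.81, 6.95 and 6.55 against 7.47, 7.34 and 7.44 (difference -0.65), and higher on day 2 (1.78) and day 3 (1.83). Control levels of HAS2 therefore stood in the opposite order on day 1 and on later days. At an adjusted p under 0.05, 7, 7 and 8 of the genes passed on days 1, 2 and 3, against 48.7%, 50.8% and 43.8% of all probe sets, from which nothing is read since these differences count among those that chose the genes. Centring each array on its own median moved the median of all genes from near 0 to -0.13, -0.18 and -0.11 on the 3 days, and with it the differences between the lines.

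**Figure D2:**
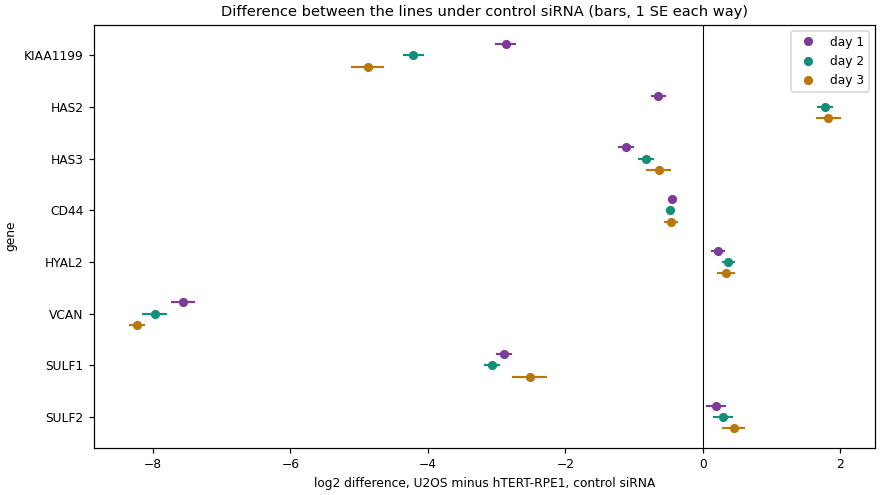
Log2 difference, U2OS minus hTERT-RPE1 cells under control siRNA (x axis), for each gene (y axis) on days 1, 2 and 3; points are differences of group means and bars 1 SE each way. VCAN lies near -8, KIAA1199 between -2.87 and -4.87, and HAS2 is below 0 on day 1 and above 0 on days 2 and 3.

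Under control siRNA, HAS2 and KIAA1199 moved in opposite directions between day 1 and day 2 in hTERT-RPE1 cells. HAS2 went from 7.47, 7.34 and 7.44 to 5.75, 5.67 and 5.66, a change of -1.72 (SE 0.10, adjusted p 3.68e-10), which was the 4th largest fall of the 22069 probe sets. KIAA1199 went from 7.51, 7.49 and 7.27 to 9.04, 8.63 and 8.48, a change of 1.29 (SE 0.14, adjusted p 1.69e-06), the 7th largest rise. No arrays of the 2 days overlapped for either gene. HAS3 fell by 0.38 (adjusted p 0.0241) and CD44 by 0.19 (adjusted p 0.0186). Thus 4 of the 8 genes were called, against 10.0% of all probe sets. These control arrays also stand in the comparison of the lines, which counts as choosing the genes. Nothing is therefore read from the count or the ranks.

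In U2OS cells, HAS2 rose over the same time, and the difference of this change between the lines was not tested. It went from 6.81, 6.95 and 6.55 to 7.44, 7.33 and 7.64, a change of 0.70 (SE 0.10, adjusted p 4.57e-05). KIAA1199 was 4.54, 4.58 and 4.55 on day 1 and 4.23, 4.64 and 4.65 on day 2, with a difference of -0.05 (95% interval -0.33 to 0.23). CD44 fell by 0.22 (adjusted p 0.00511), and 2 of the 8 genes were called, against 13.0% of all probe sets. Nothing is read from this count for the same reason. The CD44 and HAS3 calls over time were lost when the spread was taken from the compared arrays alone, and the CD44 call in hTERT-RPE1 cells also without day 1 control replicate 1 (-0.19) or 2 (-0.18) or day 2 control replicate 1 (-0.15). The HAS3 call was lost without day 1 control replicate 2 (-0.22) or day 2 control replicate 3 (-0.32).

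HAS2, a synthase, rose with CASP8AP2 siRNA in both lines. On day 2 the log2 rise was 0.55 (1.46-fold) in hTERT-RPE1 cells and 0.42 in U2OS cells. On day 3 it was 0.71 (1.64-fold) in U2OS cells, and day 3 in hTERT-RPE1 cells is described further below. On day 1 the HAS2 values were 7.67, 7.73 and 7.62 in hTERT-RPE1 cells against 7.47, 7.34 and 7.44 with control siRNA, a difference of 0.26 (SE 0.10, adjusted p 0.363) that did not pass although no arrays overlapped. On day 2 they were 6.02, 6.27 and 6.44 against 5.75, 5.67 and 5.66, a rise of 0.55 (SE 0.10, adjusted p 0.00103). The rise on day 2 was thus seen against a control level that had fallen since day 1. It exceeded the difference on day 1 by 0.29 (95% interval 0.00 to 0.59), which did not pass (adjusted p 0.564), and on day 2 the effects in the lines differed by -0.13 (95% interval -0.42 to 0.16, adjusted p 0.655).

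In U2OS cells, HAS2 rose on all days. On day 1 the values were 7.16, 7.17 and 7.12 against 6.81, 6.95 and 6.55 (0.38, SE 0.10, adjusted p 0.0242). On day 2 they were 7.92, 7.79 and 7.95 against 7.44, 7.33 and 7.64 (0.42, SE 0.10, adjusted p 0.00286). On day 3 they were 7.76 and 8.08 against 7.30 and 7.11 (0.71, SE 0.17, adjusted p 0.00996). In each of these comparisons all CASP8AP2 arrays were above all control arrays. The day 1 call was lost without control replicate 1 (0.40) or 3 (0.27) or any CASP8AP2 replicate (0.37 to 0.39). It was also lost with only the compared arrays, in the fit of all 40 arrays and with the replicate number as a block (0.38 in each). Its adjusted p ran from 0.00999 to 0.151 over the alternatives. The day 3 call was lost without CASP8AP2 replicate 2 (0.55) or control replicate 2 (0.62), with adjusted p from 0.000402 to 0.0814.

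KIAA1199, needed for hyaluronan cleavage, rose with CASP8AP2 siRNA in U2OS cells on days 2 and 3, and on day 2 its effect there differed from that in hTERT-RPE1 cells. In U2OS cells on day 1 its values were 4.47, 4.63 and 4.55 with CASP8AP2 siRNA against 4.54, 4.58 and 4.55, a difference of 0.00 (95% interval -0.29 to 0.28). On day 2 they were 4.94, 5.43 and 5.13 against 4.23, 4.64 and 4.65, a rise of 0.66 (SE 0.14, adjusted p 0.000836), and on day 3 they were 5.36 and 4.80 against 3.93 and 4.15, a rise of 1.04 (SE 0.23, adjusted p 0.00678). All arrays with CASP8AP2 siRNA stood above all control arrays on days 2 and 3. The effect on day 2 exceeded that on day 1 by 0.66 (SE 0.19, adjusted p 0.0389). That excess failed the threshold in 9 of 12 fits that left out an array (0.53 to 0.71 in those, adjusted p 0.0201 to 0.110 over the alternatives), and the day 3 rise failed without CASP8AP2 replicate 1 (0.76) or control replicate 1 (0.93), with adjusted p from 0.000237 to 0.0937.

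In hTERT-RPE1 cells, KIAA1199 was 7.10, 6.88 and 7.18 with CASP8AP2 siRNA against 7.51, 7.49 and 7.27 on day 1 (-0.37, SE 0.14, adjusted p 0.310) and 8.24, 8.37 and 8.30 against 9.04, 8.63 and 8.48 on day 2 (-0.41, SE 0.14, adjusted p 0.0762). All CASP8AP2 arrays were below all control arrays on both days, but neither difference passed the threshold. On day 2 it was called after median centring (-0.46), without dim probe sets (-0.41) and without control replicate 3 (-0.53), with adjusted p from 0.0329 to 0.334 over the alternatives. On day 2 the effect in U2OS cells exceeded that in hTERT-RPE1 cells by 1.07 (SE 0.19, adjusted p 0.000762). On day 1 the effects differed by 0.37 (95% interval -0.03 to 0.76, adjusted p 0.528).

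**Figure D3:**
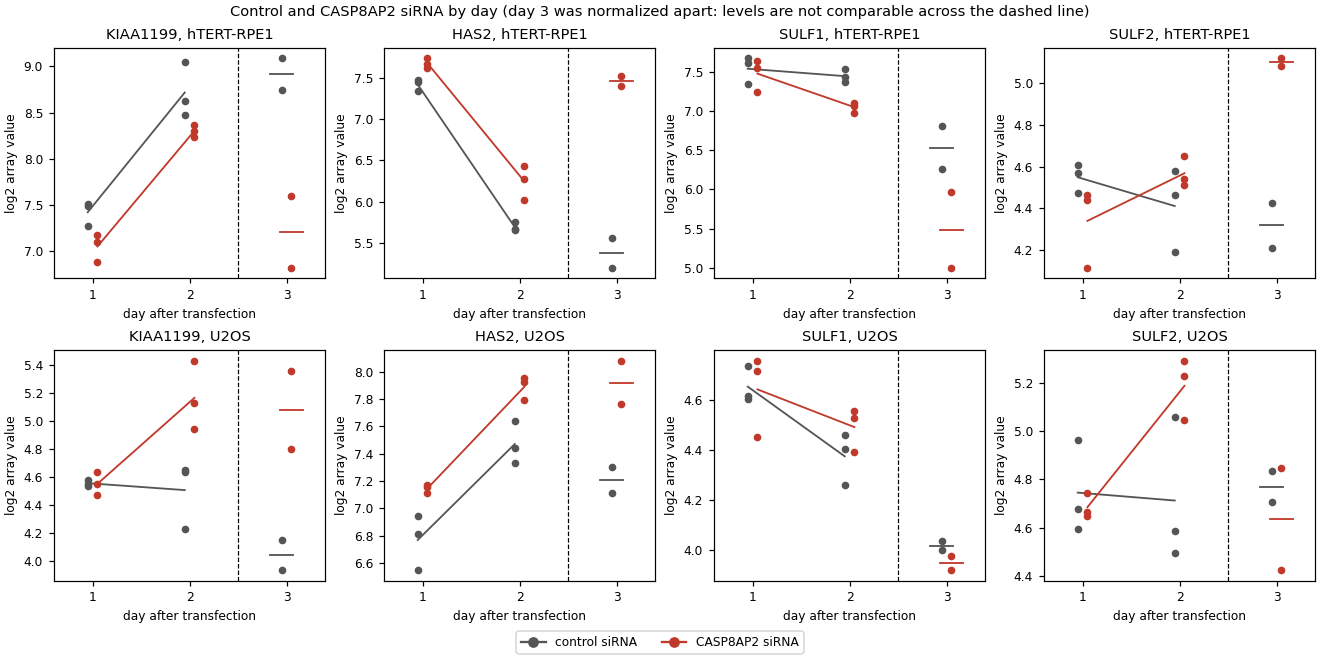
Log2 array value (y axis) of KIAA1199, HAS2, SULF1 and SULF2 by day after transfection (x axis) with control and CASP8AP2 siRNA in hTERT-RPE1 (top) and U2OS cells (bottom); points are arrays, lines join or mark group means, and day 3 was normalized apart. HAS2 with CASP8AP2 siRNA lies above control in every panel day, while KIAA1199 lies below control in hTERT-RPE1 cells and above it in U2OS cells on days 2 and 3.

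Of the heparan sulfate enzymes, SULF1 fell in hTERT-RPE1 cells and SULF2 rose in U2OS cells with CASP8AP2 siRNA on day 2. For SULF2 the effect was not called as different between the lines on that day. SULF1 was 6.98, 7.07 and 7.10 with CASP8AP2 siRNA on day 2 in hTERT-RPE1 cells against 7.43, 7.37 and 7.53 with control (-0.40, SE 0.10, adjusted p 0.0203), after 7.24, 7.55 and 7.64 against 7.61, 7.67 and 7.34 on day 1 (-0.06, adjusted p 0.919). The day 2 arrays did not overlap, and those of day 1 did. SULF1 stayed between 3.92 and 4.76 in all U2OS arrays, below the array medians of 5.23 to 5.67, which limits what can be seen of a fall there. On day 2 the effect in U2OS cells differed from that in hTERT-RPE1 cells by 0.51 (SE 0.14, adjusted p 0.0263). The SULF1 fall was not called without CASP8AP2 replicate 1 (-0.36) or control replicate 3 (-0.35), nor in a fit of all 40 arrays (-0.40), with adjusted p from 0.00960 to 0.147. The difference between the lines was lost in 5 of 12 fits that left out an array (0.46 to 0.49 in those) and in the fit of all 40 arrays, with adjusted p from 0.0117 to 0.159.

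SULF2 was 5.04, 5.29 and 5.23 with CASP8AP2 siRNA in U2OS cells on day 2 against 4.49, 4.59 and 5.06 with control, a rise of 0.47 (SE 0.13, adjusted p 0.00941). The highest control array stood just above the lowest CASP8AP2 array. In hTERT-RPE1 cells the SULF2 difference was -0.21 on day 1 (adjusted p 0.687), with all CASP8AP2 arrays lower. On day 2 it was 0.16 there (adjusted p 0.589), with overlapping arrays. The day 2 effect was higher in U2OS than in hTERT-RPE1 cells by 0.32 (SE 0.18, adjusted p 0.346), which did not pass. All SULF2 values in both lines lay below the array medians of their set, which limits what can be seen. The highest was 5.29 in the first set and 5.12 on day 3, under the lowest medians of 5.44 and 5.23. On day 3 the U2OS values were 4.85 and 4.42 against 4.71 and 4.83 (-0.13, adjusted p 0.615), and on day 1 they were 4.67, 4.74 and 4.65 against 4.59, 4.68 and 4.96 (-0.06, adjusted p 0.891). The day 2 call was lost without control replicate 1 (0.36) or 2 (0.41) and when only the compared arrays gave the spread (0.47), with adjusted p from 0.000501 to 0.0694.

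Counted over the 8 genes, CASP8AP2 siRNA gave 0 calls in hTERT-RPE1 cells on day 1 (limma, 2 genes at an unadjusted p under 0.05), against 0.793% of all probe sets, and 2 on day 2, HAS2 higher and SULF1 lower, against 6.40%. In U2OS cells it gave 1 call on day 1 against 5.87%, 3 on day 2 against 24.9% and 2 on day 3 against 18.9%, all of them higher. The median difference of the 8 genes in U2OS cells was 0.00, 0.18 and 0.09 on the 3 days, beside 0.00, -0.01 and 0.02 over all probe sets. In hTERT-RPE1 cells it was -0.02 on day 1 and 0.06 on day 2, beside 0.00 and -0.02. Between the lines, the effect of CASP8AP2 siRNA differed for 0 genes on day 1 (limma, 0 at an unadjusted p under 0.05; background 0.689%) and for 2 on day 2 (9.39%). Between days 1 and 2 it differed for 0 genes in hTERT-RPE1 cells (limma, 2 at an unadjusted p under 0.05; background 0.652%) and for 1 in U2OS cells (7.04%).

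Day 3 of CASP8AP2 siRNA in hTERT-RPE1 cells counts among the comparisons that chose the genes, and its values are described only. KIAA1199 was 6.82 and 7.60 against 8.75 and 9.09 with control siRNA, a difference of -1.71 that left 30.6% of the control signal. HAS2 was 7.40 and 7.52 against 5.20 and 5.56, a difference of 2.08, or 4.23-fold. SULF1 was 5.00 and 5.97 against 6.26 and 6.81 (-1.05), and SULF2 was 5.08 and 5.12 against 4.21 and 4.42 (0.78). The arrays of the 2 groups did not overlap for these 4 genes, though the replicates of SULF1 lay further apart than those of the others. CD44 differed by 0.26, HAS3 by 0.09, HYAL2 by -0.03 and VCAN by 0.02. In this comparison 4 of the 8 genes passed the threshold, against 6.15% of all probe sets, and in the difference of this effect between the lines 3 did, against 9.55%, from which nothing is read.

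KIAA1199 was also lower with NPAT and HINFP siRNA in hTERT-RPE1 cells on day 3, against the control arrays that took part in choosing the genes, so that these values are described only. They were 7.73 and 7.97 with NPAT siRNA and 7.89 and 8.10 with HINFP siRNA, against 8.75 and 9.09. The differences were -1.07 for NPAT and -0.92 for HINFP. NPAT and HINFP arrays overlapped each other, and both groups lay between the control and the CASP8AP2 arrays.

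In U2OS cells, NPAT siRNA raised KIAA1199 to 4.93 and 4.82 from 3.93 and 4.15 (0.83, SE 0.23, adjusted p 0.0404). With HINFP siRNA it was 4.35 and 4.54 (0.41, 95% interval -0.09 to 0.90, adjusted p 0.332). Both groups lay above the control arrays, as did CASP8AP2. The NPAT call was lost without any 1 of its 4 arrays (0.73 to 0.94), with adjusted p from 0.00453 to 0.247. The effect in U2OS cells minus the difference in hTERT-RPE1 cells was 1.90 for NPAT and 1.33 for HINFP siRNA, described only for the same reason.

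HAS2 in U2OS cells stood apart with CASP8AP2 siRNA from its level with the other siRNAs. On day 3 it was 6.63 and 7.13 with NPAT siRNA (-0.32, adjusted p 0.292) and 6.93 and 6.90 with HINFP siRNA (-0.29, adjusted p 0.340), against 7.30 and 7.11. HAS2 in U2OS cells was higher with CASP8AP2 than with NPAT siRNA by 1.04 (SE 0.17, adjusted p 0.00465) and than with HINFP siRNA by 1.01 (SE 0.17, adjusted p 0.00451). These differences stayed called without any 1 array, and were lost when only the compared arrays gave the spread (adjusted p 0.102 and 0.0524, the highest over their alternatives, with 1.55e-05 and 1.75e-05 the lowest). In hTERT-RPE1 cells HAS2 was 5.89 and 6.14 with NPAT siRNA and 5.47 and 5.54 with HINFP siRNA, against 5.20 and 5.56, differences of 0.63 and 0.12 that are described only. The NPAT arrays lay above the control arrays, and the HINFP arrays overlapped them.

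SULF2 was 4.81 and 4.81 with HINFP siRNA in hTERT-RPE1 cells against 4.21 and 4.42 (0.49), and 4.69 and 4.25 with NPAT siRNA (0.15). SULF1 was 6.33 and 6.60 with NPAT siRNA and 6.43 and 6.30 with HINFP siRNA, within the range of its control arrays, 6.26 and 6.81. In U2OS cells neither SULF gene passed the threshold with NPAT or HINFP siRNA.

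Over the 8 genes in U2OS cells, NPAT siRNA gave 1 call against 8.13% of all probe sets, and HINFP siRNA gave 0 against 9.43% (limma, 0 at an unadjusted p under 0.05). The median difference of the 8 genes was 0.02 and -0.02 with NPAT and HINFP siRNA in hTERT-RPE1 cells, beside -0.03 and -0.02 over all probe sets, and 0.04 and 0.05 in U2OS cells, beside 0.00 and -0.01. In U2OS cells CASP8AP2 siRNA differed from NPAT siRNA for 1 gene (3.50%) and from HINFP siRNA for 1 (5.60%), both times HAS2, and NPAT differed from HINFP siRNA for 0 (limma, 0 at an unadjusted p under 0.05; 4.04%). In hTERT-RPE1 cells NPAT differed from HINFP siRNA for 0 genes (limma, 2 at an unadjusted p under 0.05; 3.63%), a comparison that uses neither the control nor the CASP8AP2 arrays. Nothing is read from the counts that rest on the day 3 hTERT-RPE1 arrays used to choose the genes. These were 2 genes for NPAT (5.04%) and 1 for HINFP siRNA (4.15%) against control in hTERT-RPE1 cells, 2 for NPAT (3.46%) and 1 for HINFP siRNA (3.15%) between the lines, and 2 for CASP8AP2 against NPAT (2.38%) and 1 against HINFP siRNA (3.81%) in hTERT-RPE1 cells.

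**Figure D4:**
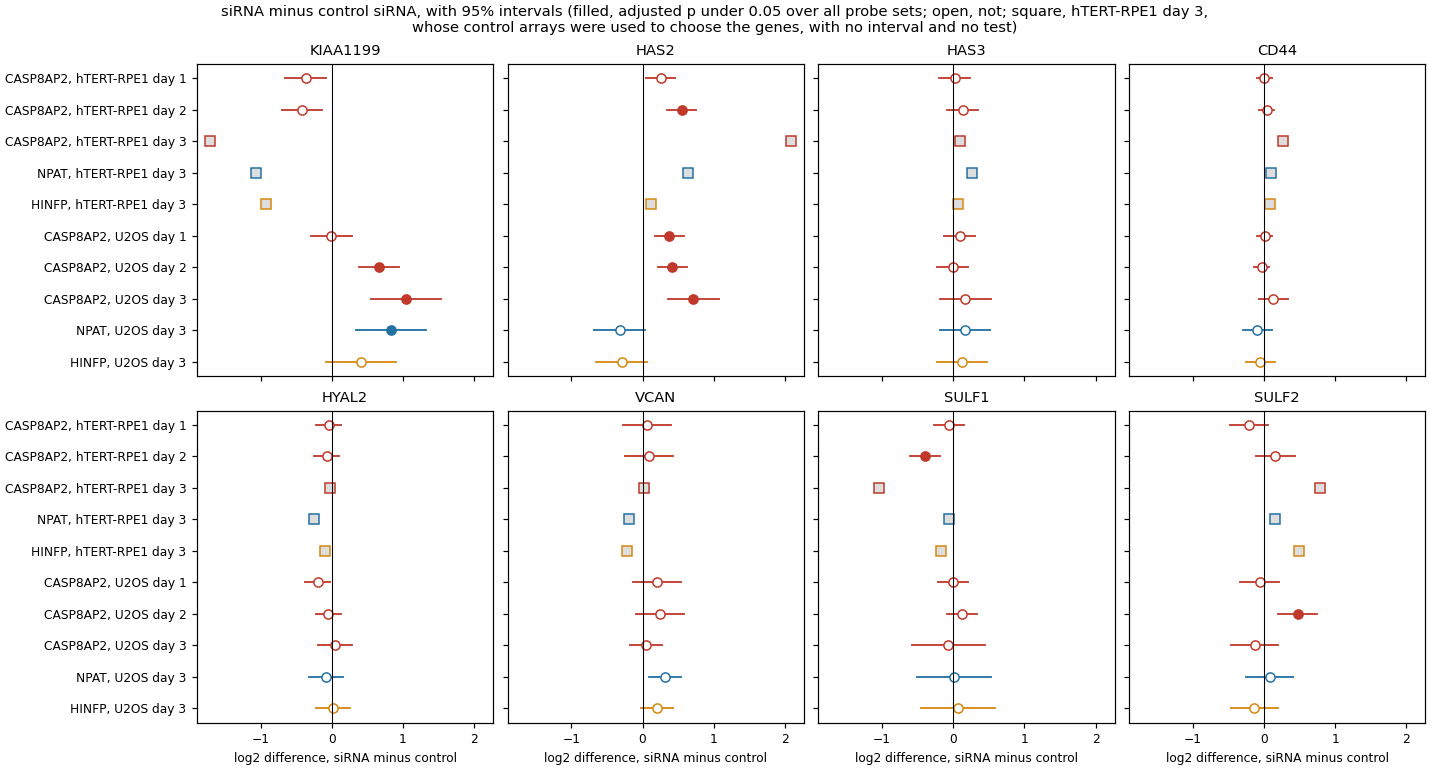
Log2 difference, siRNA minus control siRNA (x axis), in the 10 comparisons (y axis) for each gene; points are differences, bars 95% intervals, filled points have an adjusted p under 0.05 over all probe sets, and squares show the hTERT-RPE1 day 3 comparisons, whose control arrays took part in choosing the genes, with no test. KIAA1199 lies below 0 in hTERT-RPE1 cells and at or above 0 in U2OS cells, HAS2 lies above 0 with CASP8AP2 siRNA throughout, and HAS3, CD44, HYAL2 and VCAN have no filled point.

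The remaining 4 genes, the synthase HAS3, the receptor CD44, the hyaluronidase HYAL2 and the proteoglycan VCAN, were called in none of the comparisons of an siRNA with control. Their differences, day 3 of CASP8AP2 siRNA in hTERT-RPE1 cells left out, lay between -0.25 (HYAL2, NPAT siRNA in hTERT-RPE1 cells) and 0.32 (VCAN, NPAT siRNA in U2OS cells, adjusted p 0.0869). VCAN in that comparison was called after loess scaling (0.37) and without dim probe sets (0.32, adjusted p 0.0441 and 0.0497). Its values there were 3.90 and 3.60 against 3.52 and 3.34, all below the array medians. VCAN was kept when dim probe sets were left out because of its high hTERT-RPE1 values. CD44 was measured most tightly. Its U2OS values on day 3 were 11.59 and 11.56 with control, 11.71 and 11.70 with CASP8AP2, 11.48 and 11.48 with NPAT and 11.53 and 11.52 with HINFP siRNA, so that the groups did not overlap, and the differences of 0.13, -0.10 and -0.05 did not pass (adjusted p 0.388, 0.635 and 0.823). After loess scaling the CASP8AP2 difference was 0.28 and called, with adjusted p from 0.0419 to 0.631 over its alternatives. The 95% interval of CD44 with CASP8AP2 siRNA on day 2 was -0.07 to 0.15 in hTERT-RPE1 cells and -0.14 to 0.08 in U2OS cells.

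Whether the effects on HAS2 and HAS3 differ was not tested. HAS3, another synthase, was not called with CASP8AP2 siRNA in either line. With CASP8AP2 siRNA on day 2 it was 6.36, 6.51 and 6.52 against 6.39, 6.38 and 6.22 in hTERT-RPE1 cells (0.13, 95% interval -0.08 to 0.35) and 5.60, 5.53 and 5.36 against 5.44, 5.51 and 5.56 in U2OS cells (-0.01, 95% interval -0.23 to 0.21). Arrays overlapped in both lines. HYAL2 on day 1 in U2OS cells was 6.96, 6.82 and 6.97 with CASP8AP2 siRNA against 7.24, 7.06 and 7.04, all lower (-0.20, adjusted p 0.206). On day 2 its arrays overlapped in both lines.

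Within the first set, the highest mean of KIAA1199 was 8.72 ± 0.29 (SD, n = 3) in hTERT-RPE1 cells with control siRNA on day 2 and the lowest 4.51 ± 0.24 (SD, n = 3) in U2OS cells with control siRNA on day 2, and the 3 lowest groups overlapped. For HAS2 the highest was 7.89 ± 0.08 (SD, n = 3) in U2OS cells with CASP8AP2 siRNA on day 2 and the lowest 5.69 ± 0.05 (SD, n = 3) in hTERT-RPE1 cells with control siRNA on day 2. On day 3 the order of HAS2 ran from 7.92 ± 0.22 (SD, n = 2) in U2OS cells with CASP8AP2 siRNA to 5.38 ± 0.25 (SD, n = 2) in hTERT-RPE1 cells with control siRNA. There the control arrays overlapped those with HINFP siRNA, and the next group up, NPAT siRNA, stood clear of both.

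Across the 16 group means, each set centred on its own mean, the genes that were high in hTERT-RPE1 cells ran together. Pearson's r was 0.97 for VCAN with SULF1, 0.96 for VCAN with KIAA1199 and 0.935 for VCAN with CD44, and HAS2 and KIAA1199 ran apart with r = -0.67. These values describe 16 points that share lines and arrays, and the gap between the lines is in all of them. Of 1927 other probe sets with a symbol, those most like each gene by Pearson's r over the 16 means were MYLK4 for KIAA1199 (0.984), C19orf40 for HAS2 (0.832), TNFRSF11A for HAS3 (0.973), FN1 for CD44 (0.961), BRMS1 for HYAL2 (0.954), NRP2 for VCAN (0.998), ARSG for SULF1 (0.989) and PAQR5 for SULF2 (0.760). By Spearman's rho the closest gene was another for all but HYAL2.

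Other genes of the same pathways were sought among 123 listed genes, of which 22 had a matched probe set, 14 of them outside the 8 genes. In hTERT-RPE1 cells none of the 14 were called with CASP8AP2 siRNA on day 1 (background 0.793%) or 2 (6.40%) or with NPAT siRNA (5.04%). With HINFP siRNA 2 were (4.15%), against the day 3 control arrays that took part in choosing the genes, so that they are described only. These were SGSH, a lysosomal sulfatase of heparan sulfate, higher (0.46) and GUSB, the lysosomal beta-glucuronidase, lower (-0.35). Both calls were lost when only the compared arrays gave the spread. They were also lost without HINFP replicate 1 (0.46 for SGSH, -0.33 for GUSB) or 2 (0.46, -0.38) or control replicate 1 (0.34, -0.41). The GUSB call was lost without control replicate 2 (-0.29) too. On day 3 of CASP8AP2 siRNA in hTERT-RPE1 cells, SGSH alone was called (0.56, described only, background 6.15%). In U2OS cells with CASP8AP2 siRNA, 1 rose and 1 fell on day 1 (background 5.87%), 4 rose and 2 fell on day 2 (24.9%), and 1 rose and 1 fell on day 3 (18.9%). With HINFP siRNA 1 rose (9.43%), and with NPAT siRNA none were called (8.13%).

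ADAMTS9, a secreted protease that cuts versican, made the largest of these changes. It rose in U2OS cells with CASP8AP2 siRNA by 0.53 on day 1 (SE 0.08, adjusted p 0.000114), 0.96 on day 2 (SE 0.08, adjusted p 6.50e-09) and 0.96 on day 3 (SE 0.15, adjusted p 0.000974), and with HINFP siRNA by 0.89 (SE 0.15, adjusted p 0.00307). All 4 calls held in every alternative in which ADAMTS9 was tested. In hTERT-RPE1 cells its group means lay between 3.65 and 4.21, below the array medians. The other rises in U2OS cells with CASP8AP2 siRNA on day 2 were SGSH (0.36, adjusted p 0.0199), the surface proteoglycan SDC2 (0.22, adjusted p 0.0439) and GUSB (0.17, adjusted p 0.0192), which were lost in 3, 7 and 5 of 13 alternatives, with adjusted p up to 0.101, 0.177 and 0.0863. The arrays whose omission lost them were CASP8AP2 replicates 1 and 3 and control replicate 1 for SGSH (0.30 to 0.33), CASP8AP2 replicates 1 and 3 and control replicates 2 and 3 for SDC2 (0.17 to 0.20), and CASP8AP2 replicates 2 and 3 and control replicate 3 for GUSB (0.15 to 0.17). The surface proteoglycan SDC4 fell in U2OS cells with CASP8AP2 siRNA on days 1 and 2 (-0.31 and -0.31, adjusted p 0.00290 and 0.000708), and EXT1, which lengthens heparan sulfate chains, fell on days 2 and 3 (-0.30 and -0.28, adjusted p 0.000648 and 0.0326). The day 3 fall of EXT1 was lost without CASP8AP2 replicate 1 (-0.22) or control replicate 1 (-0.30) or 2 (-0.27), with the replicate number as a block or with only the compared arrays (-0.28), and was -0.15 and not called after loess scaling, with adjusted p from 0.00372 to 0.249 over its alternatives.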

How the data were processed

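Values were measured on 40 Affymetrix Human WT arrays. The authors processed the arrays with affy and a custom probe grouping of 1 probe set per Ensembl gene, the submitters' processing notes name RMA, and the deposited values are log2 intensities of 22069 probe sets. The version of the grouping and its genome build were not given in the sources used here. Because array means and medians differed, days 1 and 2 (24 arrays) and day 3 (16 arrays) were taken as normalized separately, and nothing was tested across them.

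Tests were made on the deposited log2 values in R 4.3.3 with limma 3.58.1 (lmFit, eBayes). Each set had 1 fit with a mean per group (16 and 8 residual degrees of freedom), with no filter or further normalization. The tests of the 28 comparisons were two-sided, with Benjamini-Hochberg adjustment over the 22069 probe sets, and an adjusted p under 0.05 made a call. The procedure was tested on simulated data. The number of arrays limits the precision.

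All 8 genes were named. They, the gene lists and the markers were chosen with earlier results of these data known. The names of the 8 genes are those of the list itself, and 4 of them have no symbol in the study's tables. Other symbols came from the study's screen tables, which were used in part and paired 1924 probe sets (8.72%), so most genes of the lists were not analysed here. Of the listed genes, values are given for called genes in the siRNA comparisons, at most the largest 3 per list, and for each of the 8 genes the closest other gene by Pearson's r. Promoter sequences were those of RefSeq.

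Alternatives were a fit of the compared arrays only, a fit of all 40 arrays, centring on the array median, cyclic loess scaling, leaving out probe sets under the median level of a set, a trended and robust prior, the replicate number as a block, and leaving out each array in turn. A group left with 1 array was assumed to vary like the others.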

Additional observations from a re-analysis of the deposited data

Results flagged for a closer look

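Some effects differed between the lines or between days by a test of the difference itself, an interaction term in limma. With CASP8AP2 siRNA on day 2, the log2 effect was higher in U2OS than in hTERT-RPE1 cells by 1.07 for KIAA1199 and by 0.51 for SULF1. All U2OS values of both genes on that day lay under the array medians. In U2OS cells the effect of CASP8AP2 siRNA on KIAA1199 was larger on day 2 than on day 1 by 0.66. On day 3 the hTERT-RPE1 side of the difference between the lines uses the control arrays that took part in choosing the genes, so that its values, U2OS minus hTERT-RPE1, are a description only. They were 1.90 for KIAA1199 and -0.96 for HAS2 with NPAT siRNA, 1.33 for KIAA1199 with HINFP siRNA, and 2.74 for KIAA1199, -1.37 for HAS2 and -0.92 for SULF2 with CASP8AP2 siRNA.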

How the results depend on the processing

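Of the comparisons, 17 are not among those described only, and in them 20 of 136 differences were called. Of these differences, 10 stayed called in all alternatives other than leaving out an array, and fewer when arrays were left out as well. Apart from those between siRNAs, the 17 comparisons use control arrays that also stand in the choosing comparison of the lines. No called difference changed sign. The counts of called genes below moved by over 1.5 times, with the value in the report first, and the cause was not tested. In the fit of all 40 arrays they were 5 and 11 between the siRNAs on day 3 (6 comparisons), 2 and 1 for CASP8AP2 siRNA on day 2 in hTERT-RPE1 cells, 1 and 0 in U2OS cells on day 1, 2 and 1 for its difference between the lines on day 2, 1 and 0 for its difference between the days, and 1 and 2 for HINFP siRNA in hTERT-RPE1 cells. With only the compared arrays they were 5 and 2 between the siRNAs, 1 and 0 for CASP8AP2 siRNA on day 1 in U2OS cells, 6 and 3 for the change over time with control siRNA in both lines, 1 and 0 for the difference between the days, 2 and 1 for the difference of NPAT siRNA between the lines, 1 and 0 for HINFP siRNA and 2 and 1 for NPAT siRNA in hTERT-RPE1 cells. Without dim probe sets, which removes SULF2 from both sets and SULF1 from day 3, they were 4 and 2 for CASP8AP2 siRNA on day 3 in hTERT-RPE1 cells. There and after loess they were 1 and 2 for NPAT siRNA in U2OS cells. After loess or median centring they were 1 and 0 for the difference of HINFP siRNA between the lines. Under median centring the difference of HYAL2 between the lines was 0.10 on day 1 and 0.28 on day 3.

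Leaving out each array in turn gave counts of 1 to 2 for CASP8AP2 siRNA on day 2 in hTERT-RPE1 cells, 0 to 1 and 1 to 1 in U2OS cells on days 1 and 3, 1 to 2 for its difference between the lines on day 2 and 0 to 2 for that between the days. They were 0 to 0 for HINFP and 0 to 1 for NPAT siRNA in hTERT-RPE1 cells, 0 to 0 for NPAT siRNA in U2OS cells, and 0 to 1 and 0 to 2 for the differences of HINFP and NPAT siRNA between the lines.

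Replicate numbers were not taken to pair the arrays. Of 18 same-numbered pairs of different groups in each line on days 1 and 2, 0 had deviations correlated above 0.1. On day 3 it was 2 of 12 for hTERT-RPE1 and 8 of 12 for U2OS cells. With 2 replicates the deviations mirror each other, so that each day 3 correlation is counted under both numbers. The main fit of day 3 does not allow for pairing, and the replicate block does. With the replicate block, 0 genes were called for CASP8AP2 siRNA on day 1 in U2OS cells and 2 for its difference between the days. On day 3 each group has 2 arrays. In both sets many VCAN, SULF1 and KIAA1199 values in U2OS cells lie under the array median, as do all SULF2 values in both lines. This limits what can be seen there.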
